A study of Mus musculus with 6 samples.

Results

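The genes described here build, cross-link and bind the hyaluronan-rich matrix around cells. They are *Acan* and *Vcan*, which encode the large proteoglycans aggrecan and versican, *Hapln1* and *Hapln3*, which encode link proteins, the hyaluronan synthase genes *Has1*, *Has2* and *Has3*, and *Cd44*, which encodes a cell-surface receptor of hyaluronan. They were chosen by gene symbol, and all 8 were found among the 44788 symbols of the count table. In *Mkx*-/- tail tendons, *Acan*, *Vcan* and *Cd44* were higher than in WT tendons, by 4.59-fold, 2.18-fold and 2.77-fold, whereas no difference in the link protein or synthase genes passed the test.

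Bulk RNA sequencing, which measures the RNA of all cells of a tissue together, was performed on tail tendons of C57BL/6 mice. There were 3 WT libraries and 3 libraries from mice lacking *Mkx*, which encodes the tendon transcription factor Mohawk. The labels give an age of 3 weeks for all 6 samples, and the study's text gives a later age. The labels name no treatment and no driver that would limit the mutation to 1 tissue, and nothing in them says whether each library came from 1 mouse, so the p-values measure the spread between these libraries.

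Hyaluronan is a long, unbranched sugar polymer that synthases in the plasma membrane extrude directly into the matrix. Aggrecan and versican belong to the lecticans, proteins that carry chondroitin sulphate chains and grip hyaluronan at their N-terminal end, and a link protein locks that grip by binding both partners. The resulting aggregates hold water. Aggrecan gives cartilage its resistance to compression and is also found where tendon is compressed, versican is typical of loose and developing tissue, and Cd44 tethers hyaluronan to the cell.

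The libraries held between 10835070 and 14160301 counts. Normalized levels are given as CPM, the count divided by the library's size after scaling by edgeR's TMM method and brought to a common unit. The knocked-out gene, *Mkx*, measured 138 ± 4.92 CPM in the WT group and 45.7 ± 9.68 CPM in the knockout group (SD, n = 3 each), so reads on it remained. WT replicate 3 was male by its counts on *Ddx3y* (301, against 0 in the other 5 libraries). The other 5, with all 3 *Mkx*-/- libraries among them, were female by *Xist* (between 1289 and 1866 counts, against 1). Sex was therefore not balanced between the genotypes, and its part in the differences was not tested. WT replicate 1 stood apart from the other WT libraries, with a chi-square per degree of freedom of 34.8 and 36.4 against them, where those differed from each other by 7.59. Tendon genes were present in every library, and the summed level of 10 tendon markers was between 382010 and 524741 CPM in WT and between 245122 and 339781 CPM in *Mkx*-/- libraries, which do not overlap. Most of this sum was *Col1a1* and *Col1a2*, with means of 185335 and 257911 CPM in WT and 115592 and 127464 CPM in *Mkx*-/- tendons. The sum therefore mainly follows these collagen genes. Of the other markers, some had higher and some lower means in *Mkx*-/- tendons. In a bulk sample, more cells of a type and more RNA per cell cannot be told apart.

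The promoters of the 3 genes that rose, and that of *Hapln3*, the neighbour of *Acan* in the genome, are shown because these genes carry the contrast described below. Each sequence is the 250 bases before the RefSeq start in build GRCm38.p6, read in the direction of the gene. Capitals mark E-boxes, CANNTG, the letters bound by basic helix-loop-helix factors such as Scleraxis, and GC boxes, GGGCGG, the letters bound by Sp1-type factors, searched on both strands. *Acan* lies on the plus strand of chromosome 7, chr7:79052976-79053225, *Hapln3* on the minus strand, chr7:79131019-79131268, *Vcan* on the minus strand of chromosome 13, chr13:89742513-89742762, and *Cd44* on the minus strand of chromosome 2, chr2:102901666-102901915.
Acan: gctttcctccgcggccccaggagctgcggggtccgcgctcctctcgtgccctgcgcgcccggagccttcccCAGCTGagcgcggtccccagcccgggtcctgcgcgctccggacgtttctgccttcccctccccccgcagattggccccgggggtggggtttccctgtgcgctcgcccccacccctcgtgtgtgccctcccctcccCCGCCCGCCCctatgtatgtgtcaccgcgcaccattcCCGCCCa
Vcan: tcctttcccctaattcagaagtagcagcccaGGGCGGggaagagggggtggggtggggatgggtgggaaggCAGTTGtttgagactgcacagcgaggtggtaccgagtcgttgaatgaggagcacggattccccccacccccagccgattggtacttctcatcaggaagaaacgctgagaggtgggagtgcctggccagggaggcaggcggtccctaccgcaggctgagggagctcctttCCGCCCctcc
Cd44: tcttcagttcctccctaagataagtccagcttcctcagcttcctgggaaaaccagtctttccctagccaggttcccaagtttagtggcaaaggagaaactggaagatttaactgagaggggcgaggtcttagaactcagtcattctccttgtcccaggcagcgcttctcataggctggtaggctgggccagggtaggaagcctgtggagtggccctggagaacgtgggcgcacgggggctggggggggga
Hapln3: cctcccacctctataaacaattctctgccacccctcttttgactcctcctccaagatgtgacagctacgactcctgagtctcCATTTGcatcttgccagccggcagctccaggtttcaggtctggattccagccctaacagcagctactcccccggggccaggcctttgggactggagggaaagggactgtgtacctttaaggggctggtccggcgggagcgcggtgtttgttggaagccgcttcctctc
The windows of the genes that rose did not look alike. *Acan* had 74.4% G and C, *Vcan* 62.4% and *Cd44* 56.4%, *Hapln3* had 58.0%, and the median of 32851 promoters was 52.4%. GC boxes were found 3 times in *Acan*, of which 2 overlap each other, 2 times in *Vcan* and in neither of the other promoters, and 32.7% of all promoters hold at least 1. An E-box was found once each in *Acan*, *Vcan* and *Hapln3* and not in *Cd44*, against 66.2% of all promoters. The palindrome ACANNTGT, which is bound by Iroquois-type homeodomains related to Mohawk and which contains an E-box, was in none of these 4 windows and in 6.31% of all promoters. *Hapln3* held 1 match each to the SOX core ACAAT and to TATAAA, present in 27.7% and 12.4% of all promoters, and the other 3 windows held neither. These matches are letters in a window and show no binding.

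*Acan* showed the largest difference of the group. It was counted 270, 351 and 503 times in the WT libraries and 1878, 1550 and 2014 times in the *Mkx*-/- libraries, corresponding to 21.3, 34.5 and 40.3 CPM and to 172, 109 and 160 CPM. Every *Mkx*-/- library was thus above every WT library, and a wide gap separated the lowest *Mkx*-/- library from the highest WT library. The log2 fold change was 2.20 (standard error 0.26, 95% interval 1.60 to 2.80, adjusted p = 0.00380 by the quasi-likelihood test of edgeR).

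*Vcan* rose less. Its level was 33.2, 42.4 and 43.3 CPM in WT and 83.7, 78.2 and 97.3 CPM in *Mkx*-/- tendons, again without overlap. The log2 fold change was 1.12 (standard error 0.15, 95% interval 0.78 to 1.47, adjusted p = 0.00558 from edgeR). The annotation places *Gm16318* and *Gm4117* over *Vcan* on the opposite strand, and the strand setting of the counting is not given in the sources used here, so reads of these genes could be included.

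*Cd44* was at 18.4, 20.8 and 24.3 CPM in WT and at 43.2, 52.7 and 80.1 CPM in *Mkx*-/- tendons. The groups did not overlap, but the *Mkx*-/- libraries were spread widely, with replicate 3 well above the others. Its log2 fold change was 1.47 (standard error 0.23, 95% interval 0.94 to 2.0, adjusted p = 0.0122 from edgeR), and 1.18 without *Mkx*-/- replicate 3. Without WT replicate 2 the value was 1.44 and the adjusted p from edgeR was 0.0624, just short of the threshold. A *U6* record lies over *Cd44* on the opposite strand.

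Of the 7 genes with enough counts to test, 3 therefore met the threshold of 0.05 for the adjusted p, and each of these also had a log2 fold change beyond 1. None was lower at that threshold in edgeR or in DESeq2. The unadjusted p in edgeR was below 0.05 for 1 gene in the downward direction, *Hapln3*, and for 4 in the upward direction. The share of all tested genes under that unadjusted threshold was not counted, here or for the marker lists below. Such counts therefore have no background beside them. Among all 14550 genes tested, 5.44% met the adjusted threshold and 3.18% did so in the upward direction, and with the fold threshold added 1.89% were called upward and 1.33% downward. In 4 of the 7 genes all *Mkx*-/- libraries lay above all WT libraries, against 14.6% of the genes tested. DESeq2, which passed 9.45% of its genes in either direction, passed the same 3 genes, with adjusted p-values of 7.49e-15 for *Acan*, 2.67e-08 for *Vcan* and 2.40e-07 for *Cd44*. The eighth gene, *Has3*, had too few counts.

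**Figure D1:**
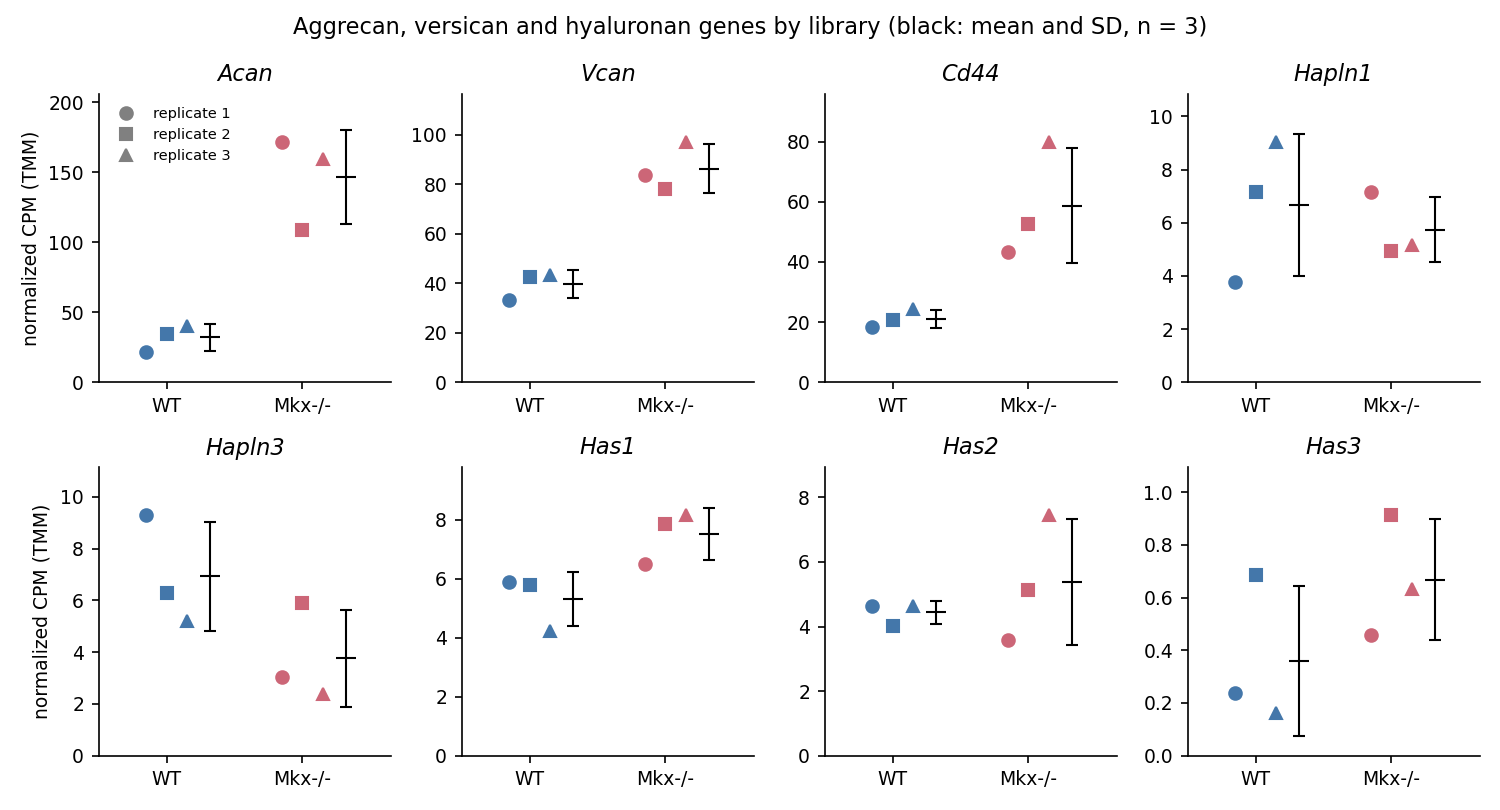
Normalized CPM (vertical axis, from 0, with a scale of its own in each panel) of the 8 genes in the 3 WT libraries (blue) and the 3 *Mkx*-/- libraries (red), with the replicate number as the point's shape and the mean and SD in black. *Acan*, *Vcan*, *Cd44* and *Has1* show no overlap between the genotypes, and the other 4 genes do.

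The link protein genes did not follow the lecticans. *Hapln3* was at 9.30, 6.28 and 5.21 CPM in WT and at 3.02, 5.90 and 2.38 CPM in *Mkx*-/- tendons. *Mkx*-/- replicate 2 lay within the WT range and the other *Mkx*-/- libraries below it. The log2 fold change was -0.87 (standard error 0.37, 95% interval -1.70 to -0.031, adjusted p = 0.204 from edgeR), and its size depended on 2 libraries, with -1.36 without *Mkx*-/- replicate 2 and -0.59 without WT replicate 1.

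*Hapln1*, the link protein first known from cartilage, was at 3.78, 7.16 and 9.05 CPM in WT and at 7.14, 4.92 and 5.15 CPM in *Mkx*-/- tendons. All 3 *Mkx*-/- libraries lay within the range of the WT libraries. Its log2 fold change of -0.22 (standard error 0.32, 95% interval -0.95 to 0.51, adjusted p = 0.737 from edgeR) had no stable direction, since it was 0.058 without WT replicate 3 and 0.047 with scaling by total counts.

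Each link protein gene lies next to a lectican gene in the mouse genome. In mm9, *Acan* occupies chromosome 7 from 86198369 to 86259985 on the plus strand and *Hapln3* follows from 86260026 to 86275895 on the minus strand, so that their 3′ ends face each other across 40 bases. *Hapln1* occupies chromosome 13 from 89680241 to 89751437 on the plus strand and *Vcan* follows from 89794915 to 89882117 on the minus strand, with 43477 bases and no annotated gene between them. Within each pair the lectican gene rose and the link protein gene did not. The ratio of *Acan* to *Hapln3* counts was 2.29, 5.48 and 7.74 in WT and 56.9, 18.5 and 67.1 in *Mkx*-/- libraries. For *Vcan* and *Hapln1* it was 8.77, 5.92 and 4.79 in WT and 11.7, 15.9 and 18.9 in *Mkx*-/- libraries. Neither ratio overlapped between the genotypes, as was already the case for the levels of *Acan* and *Vcan* alone, so the ratios are no separate evidence.

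**Figure D2:**
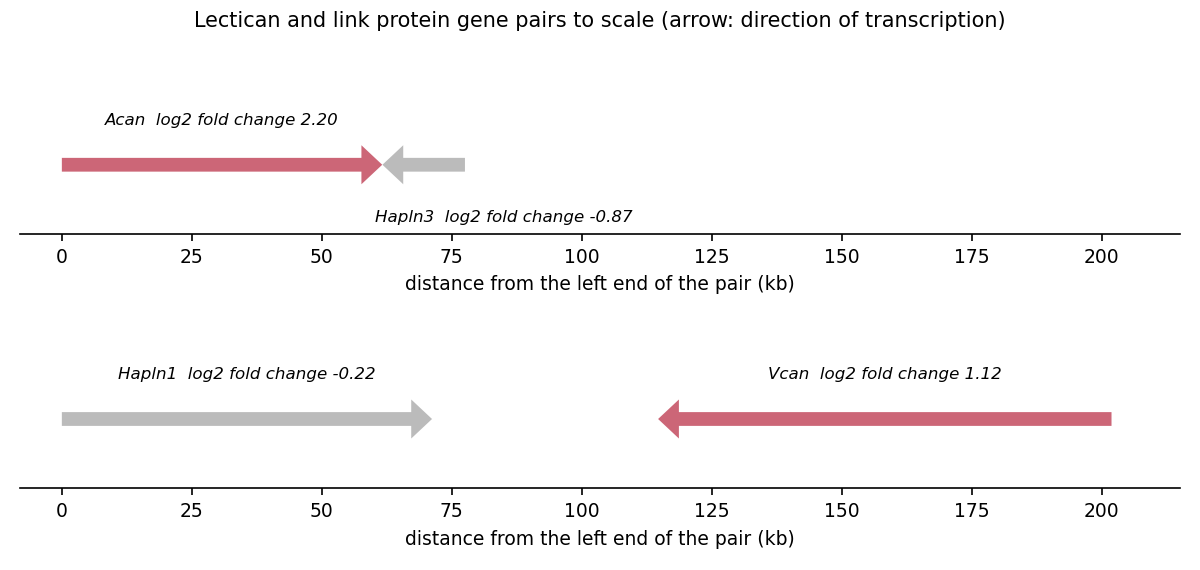
The lectican and link protein gene pairs drawn to scale, with the distance from the left end of each pair in kb on the horizontal axis and arrows in the direction of transcription. Red marks genes past an adjusted p of 0.05 in edgeR (*Acan* and *Vcan*) and grey marks the others (*Hapln3* and *Hapln1*), with the log2 fold change beside each name.

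The synthase genes were low in both genotypes. *Has1* was at 5.91, 5.79 and 4.25 CPM in WT and at 6.50, 7.87 and 8.17 CPM in *Mkx*-/- tendons. The groups did not overlap, as was the case for 28.2% of all tested genes. The log2 fold change was 0.50 (standard error 0.20, 95% interval 0.045 to 0.96), and its adjusted p was 0.182 in edgeR and 0.297 in DESeq2.

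*Has2*, the main hyaluronan synthase of the embryo, was at 4.65, 4.02 and 4.65 CPM in WT and at 3.57, 5.13 and 7.45 CPM in *Mkx*-/- tendons. The *Mkx*-/- libraries lay on both sides of the WT libraries. The log2 fold change of 0.28 (standard error 0.28, 95% interval -0.35 to 0.91, adjusted p = 0.603 from edgeR) came from *Mkx*-/- replicate 3, without which it was -0.023. The annotation places *Has2as* on the opposite strand over *Has2*. *Has3* was counted 3, 7 and 2 times in WT and 5, 13 and 8 times in *Mkx*-/- libraries, which overlap, and a difference in it was not detectable at this depth. The upper ends of these intervals for *Has1* and *Has2* lay just below a log2 fold change of 1. A doubling of either was thus outside them, while smaller increases were not. With scaling by total counts the log2 fold changes were higher, at 0.76 and 0.55 (standard errors 0.24 and 0.32). The limit of a doubling therefore holds for the main fit only.

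**Figure D3:**
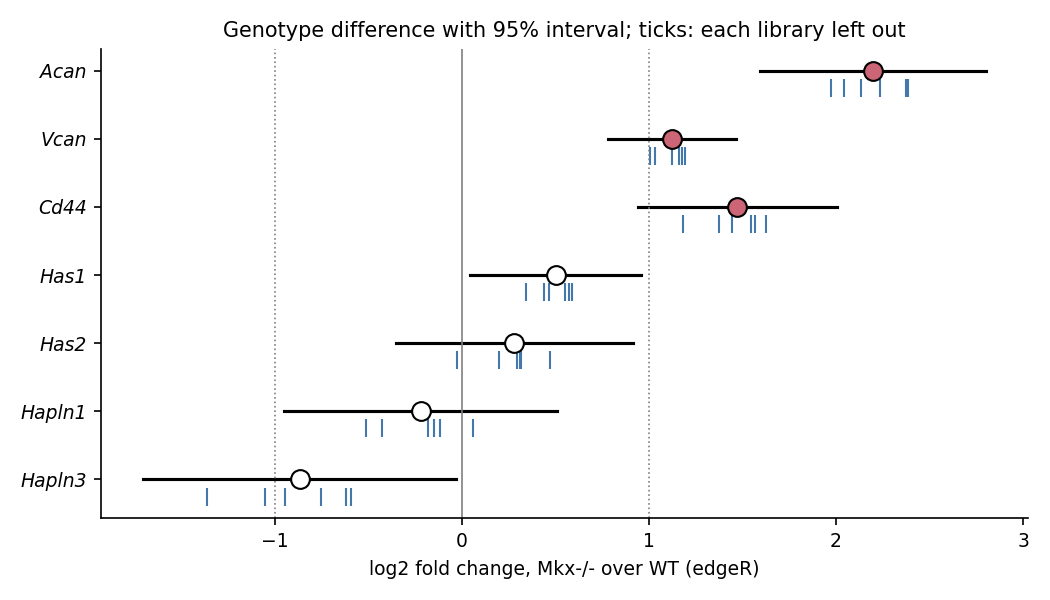
Log2 fold change of *Mkx*-/- over WT (horizontal axis) for the 7 genes tested, with the 95% interval as a line, red points past an adjusted p of 0.05 in edgeR and open points not, and blue ticks for the value with each library left out in turn. The intervals of *Acan*, *Vcan* and *Cd44* lie above 0.78, and the ticks of *Has2* and *Hapln1* fall on both sides of 0.

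Because the genes differ in length, their levels were compared per kilobase of exon. In WT tendons the order was *Acan*, *Cd44*, *Vcan*, *Has1*, *Hapln3*, *Hapln1*, *Has2* and *Has3*. *Acan* had 4.35 ± 1.32 CPM per kb, *Cd44* 3.09 ± 0.434, *Vcan* 2.74 ± 0.389 and *Has1* 2.54 ± 0.444 (SD, n = 3 each), and neighbours in this order overlapped between libraries down to *Has2*. *Has3* stood below all others at 0.0611 ± 0.0482 CPM per kb (SD, n = 3).

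In *Mkx*-/- tendons *Acan* reached 20.0 ± 4.55, *Cd44* 8.56 ± 2.79 and *Vcan* 5.97 ± 0.678 CPM per kb (SD, n = 3 each). *Acan* no longer overlapped *Cd44*, and its place among the 12870 tested genes with a length moved from above 53.1% of them in WT to above 87.5% in *Mkx*-/- tendons. *Vcan* moved from 39.9% to 61.4% and *Cd44* from 43.2% to 70.7%. *Col1a1*, for scale, had 28239 CPM per kb in WT tendons.

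The make-up of each group was also taken per kilobase, as a description. *Acan* gave 55.8%, 61.5% and 64.6% of the sum of *Acan* and *Vcan* in WT and 80.2%, 73.3% and 76.4% in *Mkx*-/- libraries, while that sum went from 7.09 ± 1.71 to 25.9 ± 4.97 CPM per kb (SD, n = 3 each). The sum of *Hapln1* and *Hapln3* was 3.41 ± 0.128 CPM per kb in WT and 2.27 ± 0.511 in *Mkx*-/- tendons (SD, n = 3 each), and its highest *Mkx*-/- library, at 2.76, lay below the lowest WT library, at 3.31. Each of these genes alone overlapped between the genotypes and did not pass, and 28.2% of all tested genes showed no overlap. *Has1* was the leading synthase gene in every library, with 64.4% to 72.2% of the 3 synthases in WT and 67.7% to 77.2% in *Mkx*-/- libraries.

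**Figure D4:**
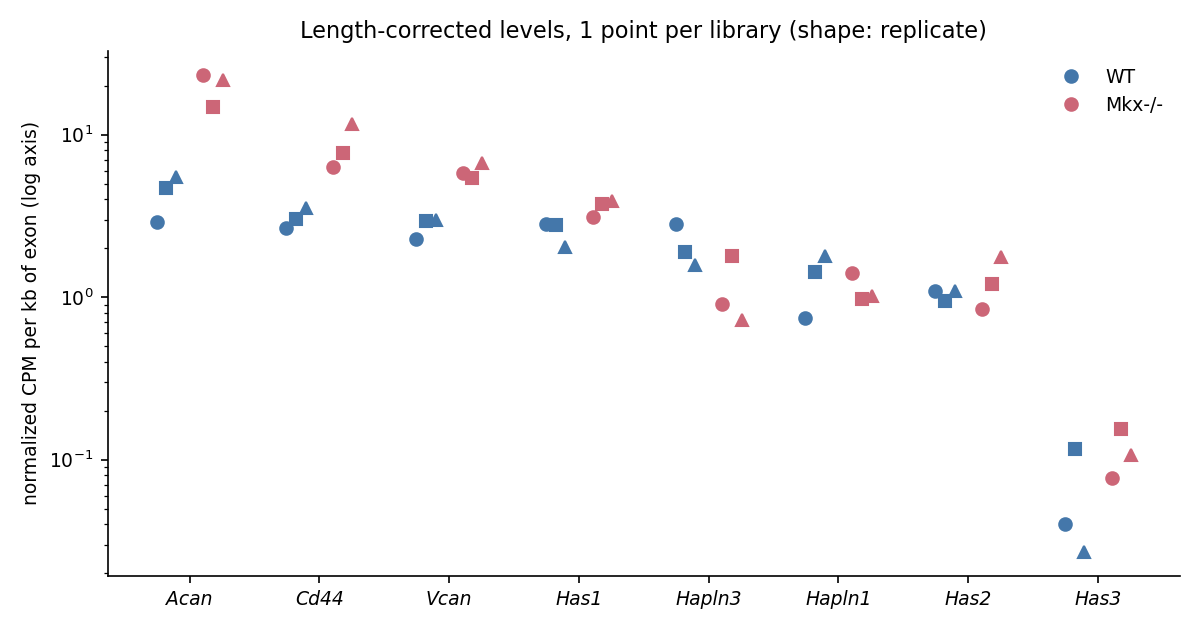
Normalized CPM per kb of exon (vertical log axis) of the 8 genes in order of their WT mean, 1 point per library, with WT in blue, *Mkx*-/- in red and the replicate number as the shape. *Acan* lies highest in both genotypes by its mean, and *Has3* lies below the other genes in every library.

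The other genes of this matrix were described with 9 lists that hold 82 measured genes, of which 68 were tested. Of these, 6 were higher and 6 lower at an adjusted p under 0.05 in edgeR, where the shares of all tested genes were 3.18% and 2.26%. The median log2 fold change was 0.091 over the 68 genes and -0.0037 over all genes. DESeq2 called all 12, but 3 of the 12, *Stab1*, *Chst15* and *Fbln1*, passed in edgeR whichever of the 6 libraries was removed. For the other 9, the highest adjusted p in edgeR without 1 library lay between 0.0809 for *Msn* and 0.170 for *Ugdh*.

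Among the hyaluronan receptors other than Cd44, the pair of stabilin genes, which encode receptors that take up hyaluronan for clearance, was lower. *Stab1* averaged 119 CPM in the WT and 50.5 CPM in the knockout group, with a log2 fold change of -1.24 (adjusted p = 0.00173 from edgeR, and at most 0.0128 without 1 library). *Stab2* fell by 2.29 on the log2 scale, from 4.05 to 0.83 CPM (adjusted p = 0.0337 from edgeR, and 0.114 without *Mkx*-/- replicate 3). *Lyve1*, a receptor of lymphatic vessels and some macrophages, *Hmmr* and *Layn* had log2 fold changes of 0.078, 0.11 and 0.72 that did not pass. Of the 4 Cd44 partners at the membrane skeleton, *Msn*, which encodes moesin, was higher with a log2 fold change of 0.66 (adjusted p = 0.0202 from edgeR), and *Ezr*, *Rdx* and *Nf2* did not pass.

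None of the 4 tested hyaluronan-degrading genes passed (*Hyal1*, *Hyal2*, *9930013L23Rik* and *Tmem2*, with log2 fold changes of -0.50, 0.12, 0.19 and 0.79). Of the proteins that bind free hyaluronan, *Ptx3*, which encodes a pentraxin that helps to cross-link it, was higher at very low levels, with means of 0.16 CPM in the WT and 1.18 CPM in the knockout group (adjusted p = 0.0227 from edgeR). *Tnfaip6*, whose product transfers heavy chains onto hyaluronan, had a log2 fold change of 0.67 and did not pass (adjusted p = 0.0742 from edgeR).

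The genes that supply the sugars and build the chains were read next. Of 10 genes of UDP-sugar supply, *Ugdh*, which makes the UDP-glucuronic acid used by synthases, was higher with a log2 fold change of 0.51 (adjusted p = 0.0484 from edgeR). Of 27 tested chondroitin sulphate genes, 2 were higher and 2 lower. The sulphotransferase genes *Chst15* and *Chst3* had log2 fold changes of 0.99 and 0.67 (adjusted p = 0.00620 and 0.0385 from edgeR). The sulphate transporter gene *Slc26a2* and *Papss2*, which makes the sulphate donor, had -1.29 and -0.62 (adjusted p = 0.0418 and 0.0496 from edgeR). The median of this list was -0.015.

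Of the 8 genes for lectican-cutting proteases and their inhibitor, *Adamts15* was lower and *Timp3*, an inhibitor of aggrecanases, was higher, with log2 fold changes of -0.86 and 0.75 (adjusted p = 0.0270 and 0.0362 from edgeR). The main aggrecanase genes *Adamts4* and *Adamts5* had -0.037 and 0.70 and did not pass. Among the proteins that bind the far end of the lecticans, *Fbln1*, encoding fibulin-1, was lower with a log2 fold change of -1.58 (adjusted p = 0.00525 from edgeR), and *Tnc*, encoding tenascin-C, had 1.13 and did not pass (adjusted p = 0.135 from edgeR). Of the related lectican and link protein genes, *Bcan* and *Hapln4* had log2 fold changes of -0.75 and -1.49 that did not pass (adjusted p = 0.466 and 0.108 from edgeR), and *Ncan* and *Hapln2* were at or near 0.

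**Figure D5:**
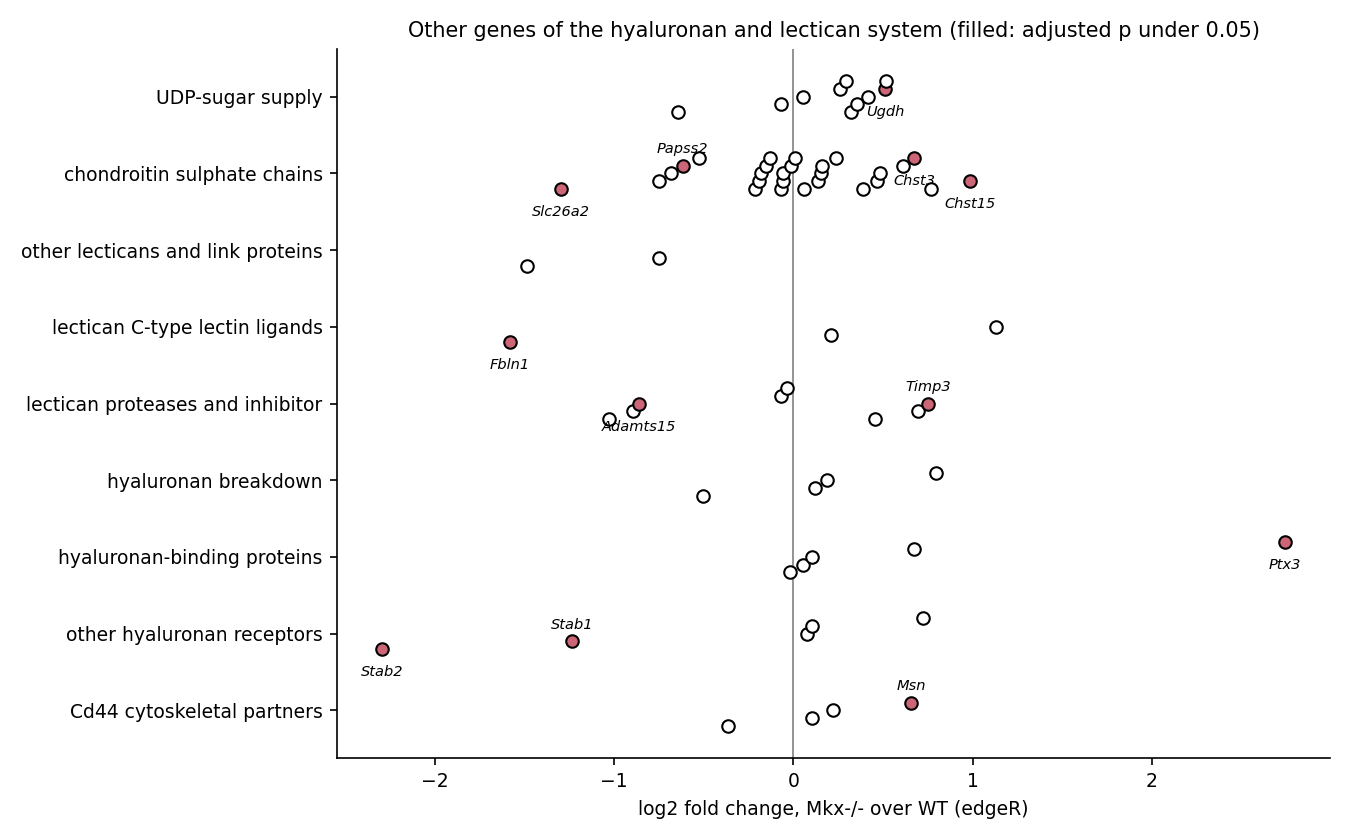
Log2 fold change of *Mkx*-/- over WT (horizontal axis) for each of the 68 tested genes of 9 lists (vertical axis), with red points past an adjusted p of 0.05 in edgeR and open points not. The 12 named red points are split evenly between the sides of 0.

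Aggrecan is a cartilage marker, and other cartilage genes were therefore read beside *Acan*. Of 13 tested cartilage markers, 2 were higher, *Ucma* and *Matn3* with log2 fold changes of 3.47 and 1.45 (adjusted p = 0.000158 and 0.00181 from edgeR), and *Prg4* was lower with -1.14 (adjusted p = 0.0429 from edgeR, and 0.136 without *Mkx*-/- replicate 3). *Col2a1*, the defining cartilage collagen, was abundant in both genotypes at 748 and 705 CPM with a log2 fold change of -0.084, *Col9a1* was near 0 and *Matn1* was at 0 counts in every library. *Sox9*, which encodes a transcription factor of cartilage, *Comp* and *Col9a2* had log2 fold changes of 1.01, 0.88 and 0.88 and were above every WT library in all *Mkx*-/- libraries, but did not pass (adjusted p = 0.0891, 0.0598 and 0.108 from edgeR). DESeq2 called 4 genes of the list higher and 1 lower. The summed level of the list was between 3217 and 3696 CPM in WT and between 3281 and 4858 CPM in *Mkx*-/- libraries, which overlap. This sum mixes opposite changes in its most abundant genes. *Comp* and *Chad* averaged 1335 and 1160 CPM in the knockout group, against 727 and 717 CPM in the WT group. *Prg4* averaged 570 against 1257 CPM, and *Col2a1* differed little. The overlap of the sum therefore does not show that the list was unchanged. The median log2 fold change was 0.71, against -0.0037 for all genes.

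*Cd44* is carried by leukocytes and by mesenchymal progenitors. All 10 tested leukocyte markers had log2 fold changes below 0, with a summed level between 470 and 517 CPM in WT and between 306 and 370 CPM in *Mkx*-/- libraries, which do not overlap. Of these, 2 passed, *Csf1r* and *Emr1*, macrophage genes, which were lower with log2 fold changes of -0.63 and -1.09 (adjusted p = 0.0173 and 0.00921 from edgeR). The macrophage genes and *Stab1* moved the same way, and their part in the fall of *Stab1* was not tested. Of 8 progenitor markers, *Nt5e* and *Ly6a* were higher, with log2 fold changes of 1.86 and 0.83 (adjusted p = 0.00576 and 0.0325 from edgeR), and *Thy1* had 0.19 and did not pass. All 8 had log2 fold changes above 0, with a median of 0.40, and DESeq2 called 3 higher. Of the marker genes named so far, *Ucma*, *Matn3*, *Emr1* and *Nt5e* also passed whichever library was removed, and *Prg4*, *Csf1r* and *Ly6a* did not, with adjusted p-values in edgeR of up to 0.136, 0.0776 and 0.109. The summed level of the 8 progenitor markers was between 2361 and 3001 CPM in WT and between 3821 and 4040 CPM in *Mkx*-/- libraries, and the part of such cells in the rise of *Cd44* was not tested. More than any other gene, *Fstl1*, which encodes a secreted protein, made up this sum, at 1509 CPM in the WT and 2353 CPM in the knockout group, and it did not pass (adjusted p = 0.0731 from edgeR).

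Markers of other tissues differed between the libraries as well. The summed level of 20 skeletal muscle markers was between 108 and 476 CPM in WT and between 666 and 3376 CPM in *Mkx*-/- libraries, highest in *Mkx*-/- replicate 1. In this list *Casq1*, *Tnnt3*, *Tnni2* and *Tnnc2* passed, with log2 fold changes between 2.72 and 3.06, and missed the threshold without WT replicate 2 or 3 or *Mkx*-/- replicate 1 or 2 (adjusted p in edgeR of up to 0.130). Of the 20, 19 had log2 fold changes above 0, with a median of 2.89. In the main edgeR fit 19 had an unadjusted p under 0.05, for which no share of all genes was counted, and DESeq2 called 10 higher. The endothelial markers summed to between 63.5 and 77.8 CPM in WT and between 76.2 and 153 CPM in *Mkx*-/- libraries, highest in replicate 3, the library with the most *Cd44*. Keratinocyte markers summed to between 13.6 and 29.4 CPM in WT and between 24.5 and 28.6 CPM in *Mkx*-/- libraries. Adipocyte markers summed to between 2.72 and 3.70 CPM in WT and between 2.66 and 5.34 CPM in *Mkx*-/- libraries. Osteoblast markers summed to between 3.07 and 5.45 CPM in WT and between 6.67 and 7.29 CPM in *Mkx*-/- libraries, which do not overlap. Of these 8 genes, only *Alpl* and *Runx2* had enough counts to test. Their knockout means were 3.31 and 1.82 CPM, against WT means of 1.09 and 0.65, and the sum mainly follows them. *Sp7*, *Bglap*, *Ibsp* and *Dmp1* had lower knockout means (0.21, 0.33, 0.81 and 0.023 CPM, against 0.30, 0.50, 1.09 and 0.26). *Bglap2* had a higher one (0.33 against 0.15 CPM), and *Phex* hardly differed.

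No gene of these 4 lists passed in the main edgeR fit. An unadjusted p under 0.05 was found there for 5 of 9 tested endothelial and 4 of 5 keratinocyte markers. The same held for 2 of 2 osteoblast and for 0 of 1 adipocyte markers. In edgeR with a filter of 1 count in any library, 5 endothelial, 3 keratinocyte and 1 osteoblast markers passed higher. In that fit 1 keratinocyte and 1 adipocyte marker passed lower. With scaling by total counts, 3 endothelial, 3 keratinocyte and 2 osteoblast markers passed higher. DESeq2 called 4 endothelial markers higher, 1 keratinocyte marker higher and 1 lower, and 1 osteoblast marker higher. The median log2 fold change was 0.93 for the endothelial list, with 7 of 9 above 0, and 1.01 for the keratinocyte list, with 4 of 5 above 0. The most abundant genes of the 4 lists were *Tek*, *Trp63*, *Fabp4* and *Alpl*, with log2 fold changes of 0.019, -1.02, 0.47 and 1.58. The endothelial genes *Pecam1* and *Tie1* both had 1.30 and the osteoblast gene *Runx2* 1.49 (adjusted p = 0.120, 0.0885 and 0.0734 from edgeR).

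Schwann cells wrap the axons of peripheral nerves. The summed level of 7 Schwann cell markers was between 4502 and 5785 CPM in WT and between 6832 and 12505 CPM in *Mkx*-/- libraries, which do not overlap, and was highest in *Mkx*-/- replicate 3, as *Cd44* was. All 7 had log2 fold changes above 0, with a median of 0.99. None passed in the main edgeR fit, where the smallest adjusted p was 0.0520 and 7 had an unadjusted p under 0.05. DESeq2 called 7 higher. All 7 also passed higher in edgeR with scaling by total counts and with a filter of 1 count in any library. The part of the skeletal muscle, endothelial, osteoblast and Schwann cell markers in the differences of *Acan*, *Vcan* and *Cd44* was not tested.

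Of the tendon markers, *Thbs4* and *Lum* were higher, with log2 fold changes of 1.26 and 0.73 (adjusted p = 0.0118 and 0.0248 from edgeR, and up to 0.0657 and 0.0980 without 1 library). Of the 10, 7 had log2 fold changes below 0, with a median of -0.22, and DESeq2 called 4 lower and 2 higher. *Scx*, *Egr1* and *Col1a2* had -1.14, -1.13 and -1.02 and did not pass (adjusted p = 0.106, 0.0771 and 0.0933 from edgeR). Without *Mkx*-/- replicate 1, where the muscle markers summed highest, *Acan* and *Vcan* had log2 fold changes of 2.04 and 1.12. Without *Mkx*-/- replicate 3 they had 2.13 and 1.03 (adjusted p at most 0.0234 from edgeR in these fits). *Cd44* had 1.18 without *Mkx*-/- replicate 3. Muscle markers still summed to 1622 and 666 CPM in *Mkx*-/- replicates 2 and 3, above every WT library. Schwann cell markers did so at 6832 and 11123 CPM in *Mkx*-/- replicates 1 and 2.

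Genes with the profile most like each of the 3 that rose were found by the root mean square distance between log2 CPM over the 6 libraries, each centred on its WT mean. For *Acan* these were *Crabp2*, *Col5a1* and *Armc4*, at distances of 0.21, 0.24 and 0.29 log2 units. For *Vcan* they were *Baiap2*, *Tnfrsf11b* and *Col4a2*, at 0.072, 0.087 and 0.11. For *Cd44* they were *Sostdc1*, *Podn* and *Nr4a2*, at 0.16, 0.17 and 0.20. The nearest neighbours of *Acan* lay farther from it than those of *Vcan* did.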

How the data were processed

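Read counts from tail tendons of WT and *Mkx*-/- mice, 3 samples each, were analysed. The authors removed adaptors and low-quality reads, aligned the rest to mm9 with MapSplice and deposited the raw count of reads for each gene symbol, not normalized. The counting program and annotation are not given in the sources used here. The labels also name mm9. All 6 count columns were matched by their labels. Levels and fold changes were estimated with edgeR 4.0.16 under R 4.3.3 (TMM, filterByExpr, quasi-likelihood fit on genotype alone, Benjamini-Hochberg over 14550 genes); a call needed an adjusted p under 0.05 and, where stated, a log2 fold change beyond 1 or -1. DESeq2 1.42.0, other scalings and filters, a robust fit, glmTreat, a replicate block, removal of muscle genes and each library left out were alternatives. Lengths and mm9 coordinates came from GENCODE vM1, with symbols of more than 1 record left unranked. Promoters came from RefSeq's GRCm38.p6 table, which held 6 of the 8 genes. The fits were tested on simulated data. No replicate pair agreed within sampling noise.

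The genes and lists were chosen with earlier results of these data known. The text names all 8 genes, *Mkx*, at most the 5 genes with the smallest p among those of each list past the threshold, and 3 genes nearest in profile; further list genes were added once their values had been seen. A withheld item is left out of the marker lists and not reported here.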

Additional observations from a re-analysis of the deposited data

How the results depend on the processing

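Over 16 alternatives for each of the 7 tested genes, 106 of 112 values kept their direction and their side of the adjusted threshold. *Acan* passed in all 16, with log2 fold changes between 1.97 and 2.46. With each library left out, *Acan* ranged from 1.97 to 2.38, *Vcan* from 1.01 to 1.19, *Cd44* from 1.18 to 1.63, *Has1* from 0.35 to 0.59, *Has2* from -0.023 to 0.47, *Hapln1* from -0.51 to 0.058 and *Hapln3* from -1.36 to -0.59. *Cd44* missed the threshold in edgeR without WT replicate 2 (log2 fold change 1.44, adjusted p = 0.0624), its highest value with a library left out. Over all its alternatives the adjusted p ranged from 2.40e-07 in DESeq2 to 0.528 in edgeR's test against a fold change of 2. Tested against a fold change of 2 itself (glmTreat), *Vcan* at 1.12 and *Cd44* at 1.47 no longer passed, and *Acan* did. *Hapln1* turned to 0.047 with scaling by total counts, which moved the median of all genes to 0.25, and relative to that median no direction changed. Without WT replicate 3 *Hapln1* turned to 0.058, and without *Mkx*-/- replicate 3 *Has2* turned to -0.023.

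The counts of all genes called, 275 higher and 193 lower, became 711 higher with scaling by total counts, 541 and 322 with a filter of 1 count in any library, and 34 and 41 with glmTreat. With a library left out they ranged from 103 to 321 higher and from 112 to 248 lower. Per kilobase of the longest transcript, *Vcan* had 3.19 and 6.95 CPM per kb in WT and *Mkx*-/- tendons and *Cd44* 3.77 in WT. The correlations of same-numbered libraries, taken on deviations from their group means, were 0.026, -0.21 and 0.30. With 3 libraries in each group they cannot show whether the replicate numbers pair the samples. With the replicate number as a block, *Acan*, *Vcan* and *Cd44* had log2 fold changes of 2.21, 1.13 and 1.44 and passed (adjusted p at most 0.0218 in edgeR). Of 570 counts over the other lists, 133 moved by over 1.5 times, most of them counts of 0 to 2 genes. Some marker lists moved further. With a filter of 1 count in any library, markers passing higher went from 4 to 19 for skeletal muscle and from 0 to 5 for endothelium. With the robust fit the skeletal muscle count went to 0. Depth limits *Has3*, with 2 to 13 counts per library.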

Other observations

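*Bcan*, which encodes brevican, a lectican known mainly from the nervous system, and the link protein gene *Hapln4* varied widely among the WT libraries. *Bcan* had 15.05, 58.5 and 90.7 CPM in WT replicates 1, 2 and 3 and 40.1, 19.8 and 37.8 CPM in *Mkx*-/- replicates 1, 2 and 3. *Hapln4* had 4.96, 16.2 and 19.9 CPM in WT and 6.78, 3.58 and 4.36 CPM in *Mkx*-/- libraries. Both genes were lowest in WT in replicate 1, where *Acan*, *Vcan*, *Hapln1* and *Cd44* were also lowest in WT, while *Hapln3* and *Has1* were highest there. The genotypes overlapped in both. Per kilobase, *Bcan* reached 16.8 ± 11.6 CPM per kb (SD, n = 3) in WT tendons, above the mean of *Acan*, at 4.35 CPM per kb.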
